A study of Mus musculus with 13 samples.

Results

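The vascular endothelial growth factor (VEGF) genes followed here were 10 of the 55357 genes in the count table: the ligands Vegfa, Vegfb, Vegfc, Vegfd and Pgf, the receptors Kdr and Flt1, the co-receptor Nrp1, and Ccbe1 and Adamts3, which act in the processing of VEGF-C. They were chosen by name and each matched a single row of the table. All 10 passed the filter on low counts and were tested. The tissue was mouse tail with lymphedema, in which lymph drains poorly and the limb or tail swells, and its RNA was sequenced after removal of ribosomal RNA. The 7 TNTSham and the 6 TNTProx1 samples were all taken on day 28 after TNT from mice aged 12 weeks. They are numbered here by their order within each group. TNT is read as tissue nanotransfection, the delivery of nucleic acid into skin by a brief electric field, and Prox1 is the transcription factor of lymphatic endothelial identity. Strain, genotype, the content of the sham and Prox1 deliveries, and whether each sample was a separate animal are not stated in the labels. P-values therefore measure the spread between these samples, which may be technical.

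VEGF ligands are secreted dimers that bind receptor tyrosine kinases on endothelial cells. Vegfa signals mainly through Kdr (VEGFR2) to drive growth and leakiness of blood vessels, while Flt1 (VEGFR1) binds Vegfa, Vegfb and Pgf tightly with weak kinase activity and also acts as a decoy. Vegfc and Vegfd act on Flt4 (VEGFR3) of lymphatic endothelium. The secreted precursor of VEGF-C is cut by the protease Adamts3, which the matrix protein Ccbe1 brings to it, and the neuropilins Nrp1 and Nrp2 assist the receptors.

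The stretch of 250 bases before the annotated start of transcription is shown for 3 members, because Pgf had the largest group difference and because Kdr and Flt1, receptors of the same ligand, had group differences of opposite sign, neither of which passed over all genes. Capitals mark each GGAA or, on the other strand, TTCC, the core letters bound by ETS factors, a family with well known roles in endothelial genes. Sequences are from RefSeq, build GRCm38.p6, minus strand for all 3, written 5′ to 3′.
Kdr (chr5:75978456-75978705): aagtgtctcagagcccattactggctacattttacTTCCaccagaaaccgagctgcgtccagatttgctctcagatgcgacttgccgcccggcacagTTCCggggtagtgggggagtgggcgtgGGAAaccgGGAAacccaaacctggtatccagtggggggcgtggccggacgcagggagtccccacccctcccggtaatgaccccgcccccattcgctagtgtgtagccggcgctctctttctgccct
Flt1 (chr5:147726012-147726261): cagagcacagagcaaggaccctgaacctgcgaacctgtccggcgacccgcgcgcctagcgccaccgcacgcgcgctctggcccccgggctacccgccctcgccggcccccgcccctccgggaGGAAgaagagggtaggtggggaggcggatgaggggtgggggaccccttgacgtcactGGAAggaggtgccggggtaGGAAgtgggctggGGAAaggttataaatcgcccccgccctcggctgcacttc
Pgf (chr12:85177314-85177563): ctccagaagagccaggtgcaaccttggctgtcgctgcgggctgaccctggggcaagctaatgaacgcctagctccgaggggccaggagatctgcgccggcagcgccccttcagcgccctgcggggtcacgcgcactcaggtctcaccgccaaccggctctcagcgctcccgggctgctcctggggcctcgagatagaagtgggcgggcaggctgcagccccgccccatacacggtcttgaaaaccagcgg
Kdr and Flt1 held 4 such matches each and Pgf held 0, and a further Pgf start in the same table also held 0. Of all 32851 promoter windows of this length, 93.4% held at least 1 match and 33.4% at least 4, with a median of 3. Other members with a listed start ran from 0 (Adamts3) to 6 (a start of Vegfa), with Nrp1 at 4. The core of the hypoxia response element, ACGTG on either strand, was found in none of these 3 stretches and in 16.6% of all windows. A match is a description of the letters only.

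With p adjusted over the whole table, no member passed. At an adjusted p under 0.05, edgeR's quasi-likelihood test called 0 of 10 members, as it called 0 of 22876 genes (0%). At an unadjusted p under 0.05, 3 of the 10 were higher in TNTProx1 (Pgf, Kdr and Vegfc), against 8.33% of all tested genes, and 0 were lower, against 3.92%. Other fits called more genes: DESeq2 called 619, limma voom with quality weights 573, and edgeR 589 without TNTProx1 1 and 34 without TNTSham 5, with 1 member (Pgf) among the calls of DESeq2 and of limma voom and 0 among those of edgeR. In sign, 8 members were higher and 2, Flt1 and Ccbe1, were lower, and 47.7% of all tested genes were higher. The median log2 fold change of TNTProx1 over TNTSham was 0.20 over the members and -0.02 over all tested genes. For 0 of 10 members did the groups stand fully apart, which they did for 0.398% of all genes upward and 0.214% downward.

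Libraries held 29.7M to 48.0M counts each (M, mega). TNTProx1 4, 5 and 6 stood apart: provisional, often unspliced TEC genes made up 0.136 to 0.193% of counts in these and 0.378 to 0.745% in the rest. The nuclear RNA Malat1 had 3410 to 3539 CPM there and 8979 to 16814 CPM in the other 10, where CPM are counts relative to TMM-adjusted library size. Prox1 itself was at 23.4 to 33.1 CPM in TNTSham and 18.7 to 72.9 CPM in TNTProx1, so the groups overlapped in the gene named by the label. Summed over the 12 blood endothelial markers fixed for this work, levels were 467 to 773 CPM in TNTSham and 774 to 1027 CPM in TNTProx1, with 12 of 12 higher and 0 markers at 0 in any library. The 8 lymphatic endothelial markers, which include Prox1, Flt4 and Nrp2, summed to 546 to 695 CPM and 638 to 1257 CPM, and the 10 skeletal muscle markers to 9232 to 15803 CPM and 4344 to 11789 CPM. The 6 keratinocyte markers summed to 26038 to 40599 CPM in TNTSham and 5671 to 55457 CPM in TNTProx1, lowest in TNTProx1 2, the library highest in Flt4. The 6 fibroblast markers summed to 23869 to 47514 CPM and 32199 to 100790 CPM, highest in TNTProx1 3. In tissue RNA, more cells of a type and more RNA per cell cannot be told apart. The part of these shifts in the values below was not tested beyond the ratios and covariate fits given.

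Per kilobase of exon, the ligands spanned a wide range. In TNTSham, Vegfd had the highest mean at 17.4 ± 5.54 RPKM (SD, n = 7; RPKM is CPM divided by exon length in kilobases), beside Nrp2 at 17.0 ± 3.15 RPKM. Nrp1 followed at 8.84 ± 1.18 RPKM and Vegfa at 7.92 ± 1.51 RPKM. Flt4 had 6.36 ± 0.593 RPKM and Kdr 5.78 ± 1.24 RPKM. Vegfb, Flt1, Ccbe1 and Vegfc had means of 4.25, 4.03, 3.02 and 2.70 RPKM, and Adamts3 had 1.58 ± 0.399 RPKM. Pgf was lowest at 0.660 ± 0.281 RPKM. Ranges over the TNTSham libraries overlapped between all neighbours in this order except between Nrp2 and Nrp1 and between Vegfc and Adamts3. In TNTProx1, Nrp2 at 22.4 ± 5.73 RPKM had a higher mean than Vegfd at 17.5 ± 4.67 RPKM (SD, n = 6), and Pgf, at 1.39 ± 0.390 RPKM, was still the lowest.

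**Figure D1:**
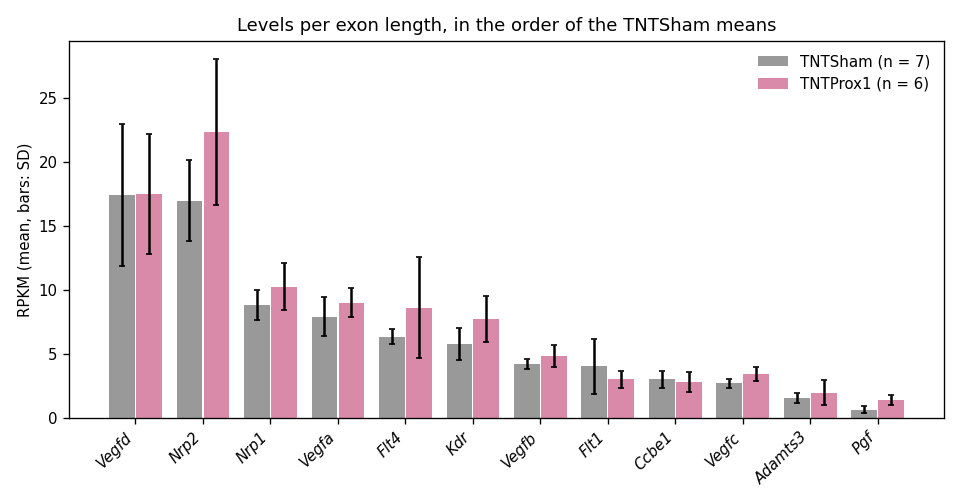
Mean level per exon length of the 10 genes and of Flt4 and Nrp2, in RPKM on a linear axis from 0, with the SD as error bars over 7 TNTSham (grey) and 6 TNTProx1 (pink) libraries. Vegfd and Nrp2 are highest and Pgf lowest in both groups.

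Among the ligands, Pgf (placenta growth factor, ENSMUSG00000004791.8), which binds Flt1, differed most. Its lowest, median and highest levels were 1.37, 1.55 and 3.60 CPM in TNTSham and 2.70, 3.74 and 5.59 CPM in TNTProx1. All 6 TNTProx1 libraries lay above the TNTSham median and 6 of the 7 TNTSham libraries lay below every TNTProx1 library, TNTSham 5 being the exception at 3.60 CPM. TNTSham averaged 1.91 ± 0.816 CPM (SD, n = 7) and TNTProx1 averaged 4.03 ± 1.13 CPM (SD, n = 6), a 2.10-fold difference with a 95% interval of 1.40 to 3.15. The log2 fold change was 1.07 ± 0.27 (SE, adjusted p in edgeR = 0.129). Pgf ranked 240 of 22876 genes by p. Depth was low for this gene, at 44 to 238 counts a library. The DESeq2 Wald test called it (log2 fold change 1.05, adjusted p = 0.0118), as it called 3.62% of its genes, and limma voom with quality weights called it at 1.11 (adjusted p = 0.0393), as it called 2.5%. Without TNTProx1 4 to 6 the edgeR value was 0.995 ± 0.32 (adjusted p = 0.103), and without TNTSham 5 it was 1.30 (adjusted p = 0.0519). TNTSham 5, the TNTSham library highest in Pgf, also had the highest blood endothelial marker sum of its group, 773 CPM. With the blood endothelial marker score as a covariate the log2 fold change of Pgf was 0.27 ± 0.42 (SE). That score was at most 0.197 in TNTSham and at least 0.278 in TNTProx1. As the groups did not overlap in it, such a fit can hardly tell group from score, here and below.

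Vegfc (ENSMUSG00000031520.7), the main lymphatic growth factor, was next among the ligands. Its levels ran from 5.55 over a median of 6.93 to 7.87 CPM in TNTSham and from 6.31 over 8.78 to 9.49 CPM in TNTProx1. In TNTProx1, 4 of 6 libraries lay above the whole TNTSham range and TNTProx1 4 and 3 lay inside it. The 1.27-fold difference had a 95% interval of 1.03 to 1.56 and did not pass over all genes (log2 fold change 0.34 ± 0.14 SE, edgeR adjusted p = 0.326). With 10 libraries it was 0.41 ± 0.14, and with the blood endothelial score as a covariate it was -0.03 ± 0.25.

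Vegfa (ENSMUSG00000023951.19), the main blood vessel growth factor, stood at 25.9, 34.4 and 44.6 CPM (lowest, median, highest) in TNTSham and at 33.8, 37.2 and 45.2 CPM in TNTProx1. In TNTProx1, 5 of 6 libraries lay inside the TNTSham range and 5 lay above its median. The fold of 1.14 had a 95% interval of 0.942 to 1.38 (log2 fold change 0.19 ± 0.13 SE, edgeR adjusted p = 0.599), so a rise above 1.38-fold lay outside the interval. With the skeletal muscle marker score as a covariate the log2 fold change was 0.09. Gene counts do not separate the splice forms of Vegfa, which differ in how they bind matrix.

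Vegfb (ENSMUSG00000024962.14), an Flt1 ligand linked to muscle and fat tissue, ran from 6.05 over 6.72 to 7.68 CPM in TNTSham and from 5.96 over 7.60 to 10.2 CPM in TNTProx1. The TNTProx1 libraries therefore reached beyond both ends of the TNTSham range, and the highest, TNTProx1 4, was among those that stood apart. Its log2 fold change was 0.19 ± 0.14 (SE, adjusted p in edgeR = 0.624) with 13 libraries and 0.04 ± 0.14 with 10, and 0.30 with the blood endothelial score as a covariate. Vegfd (ENSMUSG00000031380.11), the other ligand of Flt4, ran from 31.8 over 39.2 to 71.3 CPM in TNTSham and from 28.9 over 42.3 to 59.1 CPM in TNTProx1. No group difference was detectable at this spread: the log2 fold change was 0.01 ± 0.20 (SE, adjusted p in edgeR = 0.993), with a 95% interval of -0.42 to 0.44, and its sign turned under several other settings, to -0.34 with the muscle score and -0.33 with the blood endothelial score. Vegfd is encoded on the X chromosome, and the highest value came from TNTSham 1, the library with Xist at 2095 CPM against 2.01 CPM or less in the other 12. TNTSham 1 also had the highest macrophage marker sum of all libraries, 1348 CPM. Their part in the Vegfd value was not tested, and without TNTSham 1 the log2 fold change of Vegfd was 0.19.

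**Figure D2:**
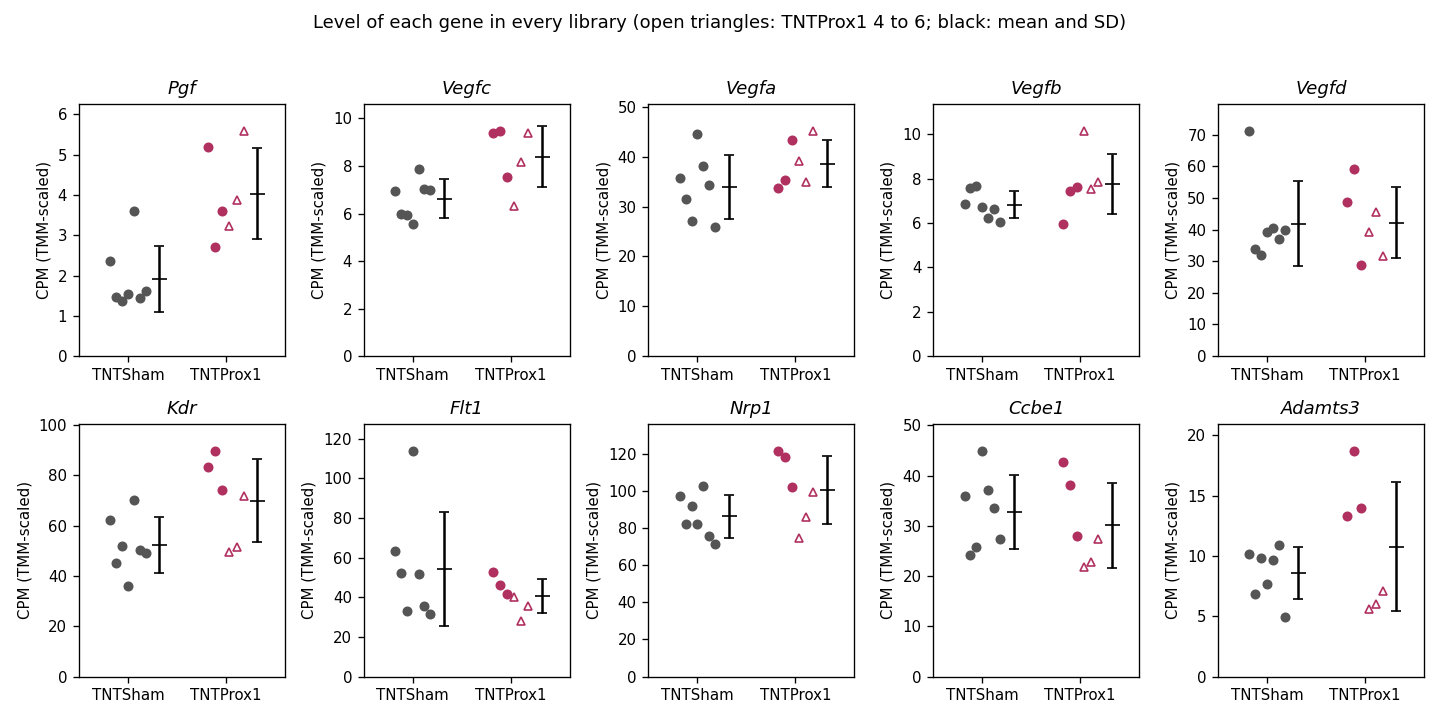
Level of each of the 10 genes in TMM-scaled CPM, on linear axes from 0, with 1 point per library for TNTSham (grey) and TNTProx1 (red) and the mean and SD in black; open triangles are TNTProx1 4 to 6. Pgf separates the groups except for TNTSham 5 at 3.60 CPM, while Adamts3, Kdr and Nrp1 have their highest values in TNTProx1 1 to 3 (filled red circles).

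The main signalling receptor of Vegfa, Kdr (ENSMUSG00000062960.11), ran from 36.0 over 50.5 to 70.1 CPM in TNTSham and from 49.7 over 72.9 to 89.7 CPM in TNTProx1. In TNTProx1, 4 libraries lay above the whole TNTSham range, and TNTProx1 4 and 5 lay near the TNTSham median. The 1.34-fold difference (95% interval 1.05 to 1.72; log2 fold change 0.43 ± 0.17 SE) did not pass over all genes (edgeR adjusted p = 0.311). It was larger with 10 libraries, at 0.66 ± 0.16 (adjusted p = 0.0728), where TNTProx1 1 to 3 at 74.1 to 89.7 CPM did not overlap TNTSham. TNTProx1 4 to 6 averaged 57.6 CPM and TNTProx1 1 to 3 averaged 82.4 CPM. The log2 fold change of Kdr was 0.26 ± 0.21 with the skeletal muscle score as a covariate and turned to -0.20 ± 0.26 with the blood endothelial score.

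Flt1 (ENSMUSG00000029648.14), the decoy-like receptor, had a difference of the other sign, which did not pass. Its levels were 31.5, 51.7 and 113.8 CPM (lowest, median, highest) in TNTSham and 27.8, 41.1 and 52.6 CPM in TNTProx1. Only TNTProx1 1 lay above the TNTSham median, yet 5 of 6 TNTProx1 libraries were inside the TNTSham range, whose width came mostly from TNTSham 4. The log2 fold change was -0.42 ± 0.27 (SE, adjusted p in edgeR = 0.574), with a 95% interval of -0.9997 to 0.16. Without TNTSham 4 it was -0.13, and with 10 libraries it was -0.22 ± 0.34. With a covariate it was -0.78 ± 0.29 for the skeletal muscle score and turned to 0.18 ± 0.46 for the blood endothelial score. TNTSham 4 had the lowest blood endothelial marker sum of all libraries, 467 CPM, and the lowest Kdr, while its Flt1 was the highest. Its Malat1, 16814 CPM, was also the highest of all libraries, and its Vegfa and Ccbe1 were the highest in TNTSham. The part of this makeup in the Flt1 value was not tested. Membrane and soluble forms of Flt1 share exons and were counted together.

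Nrp1 (ENSMUSG00000025810.10), the co-receptor that presents Vegfa to Kdr, ran from 71.4 over 82.6 to 103 CPM in TNTSham and from 74.6 over 101 to 122 CPM in TNTProx1. Only TNTProx1 1 and 2 lay above the TNTSham range. The log2 fold change was 0.22 ± 0.12 (SE, adjusted p in edgeR = 0.516), and 0.40 ± 0.12 with 10 libraries (adjusted p = 0.0917). TNTProx1 1 to 3 averaged 114 CPM and TNTProx1 4 to 6 averaged 86.9 CPM, close to the TNTSham mean of 86.5 ± 11.5 CPM (SD, n = 7). Adding the muscle score to the fit gave Nrp1 a log2 fold change of 0.09 ± 0.16, and with the blood endothelial score it turned to -0.09 ± 0.22.

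Their lymphatic counterparts, Flt4 and Nrp2, were not among the 10. Flt4 was at 47.2, 50.4 and 58.6 CPM in TNTSham and 48.5, 58.8 and 136 CPM in TNTProx1, the highest value being TNTProx1 2, and TNTProx1 1 to 3 overlapped TNTProx1 4 to 6. For Nrp2, the neuropilin of lymphatic endothelium and Vegfc, edgeR gave 0.40 ± 0.16 (log2 fold change and SE, adjusted p = 0.337) with 13 libraries and 0.67 ± 0.15 with 10.

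Within each library, the ratios of Flt1 and Nrp1 to blood endothelial markers were lower in TNTProx1, and that of Kdr did not pass. The ratio of a receptor to the geometric mean of Pecam1, Cdh5, Emcn, Cldn5, Egfl7, Esam, Ecscr and Robo4 was compared on a log2 scale (CPM + 0.5) by an exact two-sided permutation test over every split of the 13 libraries into 7 and 6, with p adjusted over 5 ratios. For Flt1 the ratio was 0.93 lower in TNTProx1 (exact p = 0.00583, adjusted p = 0.0277), with 5 of 6 TNTProx1 libraries below the whole TNTSham range. For Nrp1 it was 0.41 lower (exact p = 0.0111, adjusted p = 0.0277), again with 5 of 6 below the TNTSham range. TNTProx1 4 to 6 had Nrp1 log2 ratios of 0.82 to 0.87, below the lowest of TNTProx1 1 to 3 (1.19) and of TNTSham (1.31). For Kdr it was 0.21 lower (exact p = 0.171, adjusted p = 0.172), with TNTProx1 1 to 3 at log2 ratios of 0.73 to 0.96 and TNTProx1 4 to 6 at 0.09 to 0.39, against 0.54 to 0.85 in TNTSham. These values are ratios, chosen with earlier results of these data known. Any gene that rose less than these markers has a lower ratio to them. The share of all genes with such a ratio was not computed, so these p-values do not set Flt1 or Nrp1 apart from other genes. Each denominator gene was higher in TNTProx1, by log2 fold changes of 0.37 (Ecscr) to 0.96 (Cldn5). The other blood endothelial markers, Plvap, Tie1, Tek and Cd34, were not in the denominator. Their log2 fold changes were 0.92, 0.82, 0.22 and 0.22, beside 0.22 for Nrp1. Ratios to these genes were not computed. Nrp1 was not lower in CPM, so its ratio shows no fall of Nrp1 itself, and Flt1 alone did not pass over all genes.

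Flt1 relative to Kdr was 0.72 lower in TNTProx1 (exact p = 0.0286, adjusted p = 0.0476; 5 of 6 TNTProx1 libraries below the TNTSham range). On a linear scale Flt1 was 0.641 to 3.13 times Kdr in TNTSham and 0.498 to 0.815 times Kdr in TNTProx1. Without TNTSham 4 the difference was 0.44 on the log2 scale, still lower in TNTProx1, and the adjusted p was 0.0541. That design has fewer splits, and leaving out any of TNTSham 1, 2 or TNTProx1 1, 2, 3, 5 or 6 also put the adjusted p above 0.05. With 10 libraries the 3 ratios were lower by 0.76 (Flt1 to Kdr), 0.66 (Flt1 to markers) and 0.18 (Nrp1 to markers), each with an adjusted p of 0.292, and the Kdr ratio was higher by 0.10 (adjusted p = 0.312). The Nrp1 ratio no longer passed without TNTSham 2 (adjusted p = 0.0541), TNTSham 4 (0.0541) or TNTProx1 5 (0.0537), nor the Flt1-to-marker ratio without TNTProx1 5 (0.0537). The ratio of Vegfc to Vegfd was higher by 0.30 with 13 libraries (exact p = 0.172, adjusted p = 0.172).

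**Figure D3:**
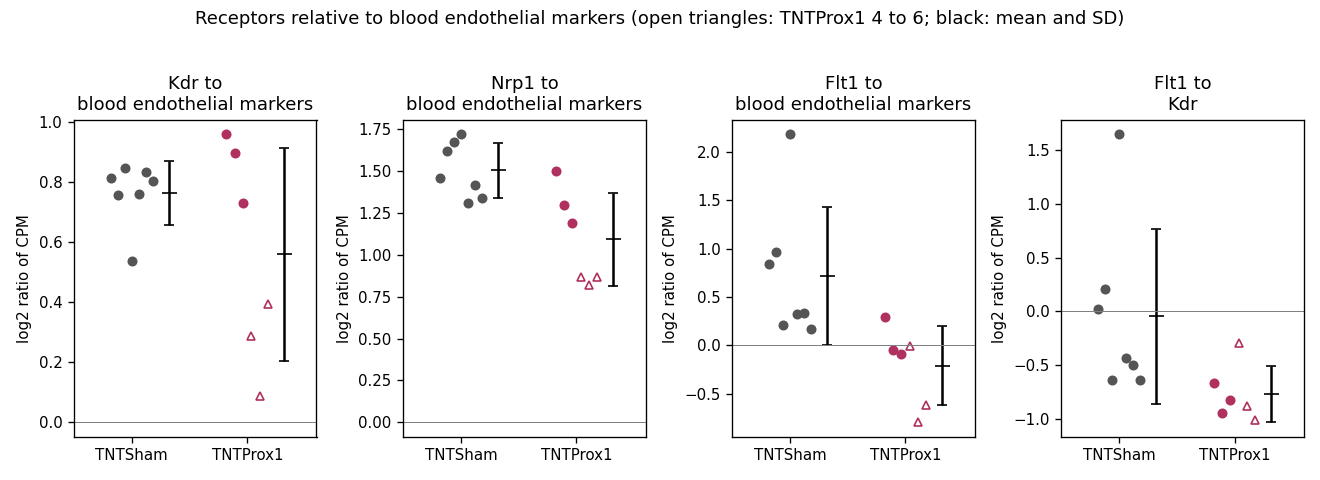
Log2 ratio of CPM of Kdr, Nrp1 and Flt1 to the geometric mean of 8 blood endothelial markers, and of Flt1 to Kdr, with 1 point per library (TNTSham grey, TNTProx1 red, open triangles TNTProx1 4 to 6) and the mean and SD in black. The Flt1 and Nrp1 ratios are lower in TNTProx1, by 0.93 and 0.41, and the Kdr and Nrp1 ratios each divide TNTProx1 1 to 3 from TNTProx1 4 to 6.

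Both processing genes had higher values in TNTProx1 1 to 3 than in TNTProx1 4 to 6. The same held without overlap for Kdr, Flt1, Nrp1 and Nrp2, so it was not particular to the processing genes. The share of all genes with this split was not computed. Adamts3 (ENSMUSG00000043635.13), the protease that cuts the VEGF-C precursor, ran from 4.90 over 9.67 to 10.9 CPM in TNTSham. In TNTProx1 it was 13.3, 18.7 and 13.9 CPM in libraries 1 to 3 and 5.56, 6.05 and 7.10 CPM in libraries 4 to 6. TNTProx1 1 to 3 were thus above every TNTSham library, while TNTProx1 4 to 6 were below the TNTSham median. The log2 fold change was 0.33 ± 0.29 (SE, adjusted p in edgeR = 0.681) with 13 libraries and 0.83 ± 0.22 (adjusted p = 0.0747) with 10, and 0.10 without TNTProx1 2. With the skeletal muscle score as a covariate it was -0.24 ± 0.32, and with the blood endothelial score -0.02 ± 0.56. TNTProx1 2, the library highest in Adamts3, had the lowest keratinocyte marker sum, 5671 CPM, whose part in the Adamts3 value was not tested.

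Ccbe1 (ENSMUSG00000046318.17), the matrix protein that brings Adamts3 to its substrate, ran from 24.3 over 33.5 to 44.9 CPM in TNTSham and from 21.8 over 27.6 to 42.8 CPM in TNTProx1. Again TNTProx1 1 to 3 (mean 36.2 CPM) were each above all of TNTProx1 4 to 6 (mean 24.0 CPM), and 2 of the latter lay below the TNTSham range. Its log2 fold change was -0.12 ± 0.18 (SE, adjusted p in edgeR = 0.821) and turned to 0.15 ± 0.19 with 10 libraries. With the muscle score as a covariate it was -0.44 ± 0.19, farther from 0, and with the blood endothelial score it was -0.05 ± 0.35.

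With TNTProx1 4 to 6 left out, 9 of 10 members were higher in sign, at a median of 0.27 against -0.0012 over all genes of that fit. The 5 members at an unadjusted p under 0.05 were Kdr, Adamts3, Nrp1, Pgf and Vegfc, against 9.34% of all genes that were higher at that p. No member was called (smallest adjusted p = 0.0728), as 0 of 23853 genes were (0%). For Kdr and Adamts3, 2 of 10 members, TNTProx1 1 to 3 lay above all TNTSham libraries, which held for 3.45% of all genes.

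**Figure D4:**
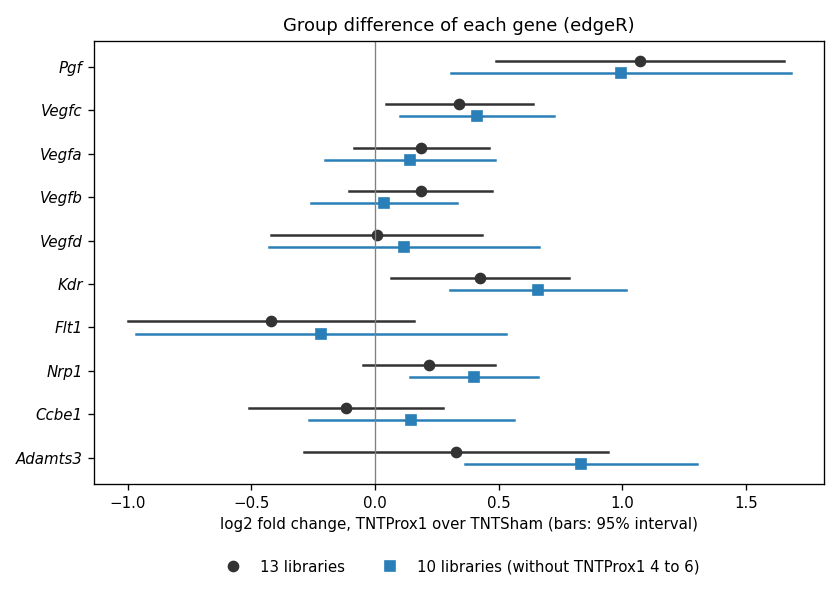
Log2 fold change of TNTProx1 over TNTSham from edgeR for each gene, with 95% intervals, for all 13 libraries (dark circles) and for the 10 libraries without TNTProx1 4 to 6 (blue squares). Pgf is farthest from 0 in both fits (1.07 and 0.995), and Kdr, Nrp1 and Adamts3 are larger with 10 libraries.

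Members were also compared by their pattern over the 10 libraries other than TNTProx1 4 to 6, as Pearson correlations of log2(CPM + 0.5) across 20372 genes. These libraries share the group difference and their makeup, so the values are descriptions. The closest genes were picked as the highest of 20372 over only 10 libraries, and such picking gives high r by itself. Closest to Pgf were Cd93 (r = 0.97), Cdh5 (0.96) and Itga1 (0.95), the first and second being endothelial surface proteins. Closest to Kdr were Pcdh12 (0.97), Adgrf5 (0.97) and Ccnyl1 (0.96), and closest to Nrp1 were Bbx, Dlc1 and Jcad (0.97 each). Vegfc was closest to Gm49526 (0.94), to Kdr itself (0.92) and to the Notch target Hey1 (0.92). For Flt1, r was -0.27 with Kdr, 0.14 with Nrp1 and 0.69 with Vegfa over the 10 libraries. Leaving out TNTSham 4 moved the values with Kdr and Nrp1 most, to 0.42 and 0.56 over the other 9 libraries. With Vegfa r was 0.54 without TNTSham 4 and 0.85 without TNTProx1 3. The genes closest to Flt1 were 4930523C07Rik (0.91), Socs5 (0.90) and Plekhm3 (0.90), which without TNTSham 4 had 0.92, 0.79 and 0.88. Vegfa was closest to Insl3 (0.96), Vegfb to Them6 (0.95), Vegfd to Ms4a6c (0.97), Ccbe1 to Togaram1 (0.95) and Adamts3 to Cpne2 (0.98).

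Around the members, lists of pathway genes gave no gene that passed over all genes. The counts below are read against all tested genes, of which 47.7% were higher in sign, 8.33% were higher and 3.92% lower at an unadjusted p under 0.05, with a median of -0.02. Of 16 receptor partners 15 were higher, 10 of them at an unadjusted p under 0.05 (all genes 8.33%), at a median log2 fold change of 0.44. The 2 of smallest p were Itgb3, the beta3 integrin subunit, at 0.85 ± 0.20 (SE, adjusted p in edgeR = 0.123) and Mcam, an endothelial adhesion protein, at 0.75 ± 0.19, and the member that was lower was Efnb2 at -0.06 ± 0.13. Of 16 genes of the endothelial response to VEGF 14 were higher (all genes 47.7%), 8 at an unadjusted p under 0.05 (all genes 8.33%), at a median of 0.49. Among these Plvap, of the diaphragms of vessel fenestrae, had 0.92 ± 0.17 (edgeR adjusted p = 0.0848) and Rasip1, a vessel lumen protein, 0.62 ± 0.15, while Egr3 and Rcan1, early targets of VEGF signalling, had -0.20 ± 0.18 and -0.0023 ± 0.17. The receptor partners share Cdh5 and Emcn, and the response genes Plvap and Cd34, with the blood endothelial markers.

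Next come the proteases and regulators of the ligands. Of 14 tested genes listed for the proteolysis of VEGF ligands or their stores 13 were higher (all genes 47.7%). Of these, 7 had an unadjusted p under 0.05 (all genes 8.33%), and the median of the list was 0.24. The list includes Svep1, a matrix protein and not a protease, which was among the higher at 0.02 ± 0.23. Mmp9, a gelatinase, had 1.49 ± 0.32 (SE, adjusted p in edgeR = 0.104), Plat, tissue plasminogen activator, had 0.53 ± 0.13, and Pcsk7, a proprotein convertase, had -0.15 ± 0.11. Mmp9 and Itgb3 are also expressed by osteoclasts, whose 6 markers, Mmp9 included, summed to 436 to 1017 CPM in TNTSham and 1002 to 2118 CPM in TNTProx1, and their part in either value was not tested. Of 12 regulators of ligand genes, the hypoxia factors among them, 9 were higher (all genes 47.7%), 1 at an unadjusted p under 0.05, at a median of 0.04. That 1 of 12 is a share near the 8.33% of all genes. Stat3 had 0.23 ± 0.10 and Vhl 0.25 ± 0.13, and on the lower side Ppargc1a, a coactivator that induces Vegfa in muscle, had -0.36 ± 0.19 and Egln3, an oxygen sensor, -0.38 ± 0.37.

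Downstream of the receptors 18 of 28 signalling genes were higher (all genes 47.7%), 10 at an unadjusted p under 0.05 (all genes 8.33%), at a median of 0.16. The other 10 were lower, 1 of them at that p (all genes 3.92%). Shc2, an adaptor that binds Kdr, had 0.70 ± 0.16 (SE, adjusted p in edgeR = 0.116) and the kinase Src had 0.45 ± 0.11. Sh2d2a, the T cell specific adaptor that also binds Kdr, had -0.84 ± 0.29, and Nfatc2 had -0.26 ± 0.15. The median of this list was 0.03 with 10 libraries. All 13 antagonists and feedback inhibitors were higher (all genes 47.7%), 8 at an unadjusted p under 0.05 (all genes 8.33%), at a median of 0.29 (0.16 with 10 libraries). Vash1, an inhibitor made by endothelium, had 1.05 ± 0.26 (edgeR adjusted p = 0.123) and Spry4, a feedback inhibitor of receptor kinases, had 0.59 ± 0.16.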

How the data were processed

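Ribosome-depleted total RNA of 13 mouse tail samples was sequenced as stranded paired-end libraries, per the labels' protocols. The deposited values are raw counts per gene. The authors used fastp 0.20.1 for trimming, HISAT2 2.2.1 for alignment to GRCm39 and featureCounts (Subread 2.0.2) for counting, per the submitters' processing notes. The notes also name DESeq2 1.34.0 and R 4.1.2. Strand setting, annotation release and the handling of multiply aligned reads are not stated there.

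Symbols, gene class and exon length came from GENCODE M21, of an older build, by identifier (52081 of 55357 genes matched, 3276 did not). Counts were filtered by filterByExpr (22876 genes left), scaled by TMM and compared between the groups with the quasi-likelihood F test of edgeR 4.0.16 (R 4.3.3), adjusted by Benjamini-Hochberg over all tested genes at 0.05. The SE was taken from the fold change and F. The common dispersion was 0.131. Totals were 29.7M to 48.0M counts (M, mega). No 2 libraries were identical. The tests were run on simulated counts of 22876 genes with these dispersions: edgeR called 9, 21, 30 and 41 of 50 genes changed by 1.5, 2, 3 and 4 fold and 2 unchanged genes.

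Alternatives were DESeq2 1.42.0, its size factors, upper quartile scaling, no low-count filter, 1 CPM in 6 libraries, limma 3.58.1 (voom with quality weights, and trend), marker scores as covariates, 10 libraries, and leaving out each library. For ratios they were a pseudocount of 1 in place of 0.5, upper quartile scaling and the same omissions. Leaving out libraries from the correlations was added after seeing the data. The members, lists and tests were chosen with earlier results of these data known. Named genes were all members, Flt4 and Nrp2, in each pathway list the 2 smallest p-values per direction, and the 3 genes most correlated with a member, some of which are left unnamed.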

Additional observations from a re-analysis of the deposited data

Results flagged for a closer look

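Of 30 groups of values examined (10 genes and 5 ratios in each group of samples), 6 had a library far from the others, where chance alone flags about 1 in 20. They came from 2 TNTSham libraries, and the values within each library share genes. In TNTSham 4, Flt1 was at 113.8 CPM against 31.5 to 63.4 CPM in the other TNTSham libraries. The log2 ratio of Flt1 to Kdr there was 1.65 against -0.64 to 0.21, that of Flt1 to blood endothelial markers 2.18 against 0.17 to 0.96, and that of Kdr to the same markers 0.54 against 0.76 to 0.85. In TNTSham 1, Vegfd was at 71.3 CPM against 31.8 to 40.5 CPM, and the log2 ratio of Vegfc to Vegfd was -3.27 against -2.71 to -2.29.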

How the results depend on the processing

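Over all genes the count called was 0 with edgeR, 1 without a low-count filter, 573 with limma voom and quality weights and 619 with DESeq2, and 0 to 589 when libraries were left out in turn (589 without TNTProx1 1, 34 without TNTSham 5). Of the members, 1 was called by DESeq2 (Pgf, log2 fold change 1.05) and 1 by limma voom (Pgf, 1.11), and 0 in every other setting, 0 to 0 over the omissions of a library. Leaving out libraries gave log2 fold changes of 0.95 to 1.30 for Pgf, 0.30 to 0.41 for Vegfc, 0.12 to 0.26 for Vegfa, 0.09 to 0.25 for Vegfb, -0.11 to 0.19 for Vegfd, 0.34 to 0.51 for Kdr, -0.52 to -0.13 for Flt1, 0.16 to 0.29 for Nrp1, -0.24 to -0.03 for Ccbe1 and 0.10 to 0.46 for Adamts3. Vegfd turned sign with DESeq2 (-0.0019), its size factors (-0.0018), no filter (-0.00024), limma voom (-0.057), the muscle score (-0.34) and the blood endothelial score (-0.33). Ccbe1 turned to 0.0017 with limma voom and 0.15 with 10 libraries, and Adamts3 to -0.24 with the muscle score. With the blood endothelial score Vegfc turned to -0.034, Kdr to -0.20, Flt1 to 0.18, Nrp1 to -0.095 and Adamts3 to -0.017, with SEs of 0.22 to 0.56. That score was higher in TNTProx1 without overlap, so a fit with it leaves less of the group difference to estimate and can hardly tell group from score. With 10 libraries, where 120 splits exist, the log2 ratio differences were -0.76 (Flt1 to Kdr), -0.66 (Flt1 to markers), -0.18 (Nrp1 to markers) and 0.10 (Kdr to markers, turned). Over the omissions they were -0.82 to -0.44, -1.03 to -0.68, -0.50 to -0.36 and -0.29 to -0.11, with 0.18 to 0.37 for Vegfc to Vegfd. The cause was not tested. No paired analysis was possible because the labels give no pairing of samples. Depth limits Pgf most, at 44 to 238 counts a library.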

Other observations

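Other genes of the endothelial response to VEGF, named here after their values were seen, were higher in sign in TNTProx1 without passing over all genes. In that list 14 of 16 genes were higher in sign, against 47.7% of all genes, and Egr3 and Rcan1 were lower. For each gene named below the 2 groups overlapped. Apln, a peptide of sprouting tip cells, had a mean of 12.9 ± 8.97 CPM in TNTSham (SD, n = 7) and of 37.4 ± 21.2 CPM in TNTProx1 (SD, n = 6). Its log2 fold change was 1.53 ± 0.45 (SE), with an adjusted p of 0.166 in edgeR. Dll4, the Notch ligand of tip cells, went from 6.94 ± 3.63 to 13.5 ± 3.46 CPM (0.96 ± 0.29, edgeR adjusted p = 0.179). Angpt2, a destabilising ligand of Tek, went from 15.8 ± 8.61 to 29.2 ± 14.2 CPM (0.89 ± 0.37, edgeR adjusted p = 0.348). Esm1, a tip cell proteoglycan, had 0.47 ± 0.55 (edgeR adjusted p = 0.760), so no difference was detectable for it.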
